A study of Mus musculus with 4 samples.

Results

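The expression of 10 genes of early thymocytes was followed through the maturation of invariant natural killer T (iNKT) cells, the CD1d-restricted T cells that recognise lipid antigens and acquire effector programs inside the thymus. They were chosen by name: Cd24a, Itm2a, Cldn10, Slc29a1, Marcksl1 and Gm43352 as genes of the earliest iNKT precursors, and Rag1, Rag2, Dntt and Arpp21 as genes of CD4+CD8+ double-positive thymocytes, from which iNKT cells are selected. Each symbol matched 1 row, so the set holds 10 of the 31053 genes counted. The counts came from 4 droplet single-cell RNA-seq libraries (10x Genomics 5′ kit) of thymocytes binding the PBS57-CD1d tetramer, each from 1 untreated mouse of 8 to 9 weeks. 2 libraries were from C57BL/6 mice and 2 from Hivep3-/- mice of a line backcrossed to C57BL/6, in which the gene of the zinc finger factor HIVEP3 is inactivated; the labels and methods do not say which exons were removed. CD44low and CD44high tetramer+ cells had been mixed 50:50 at the sort, so the share of a library taken by precursors was set in part by the gate, and the sums over all cells given near the end depend on it.

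At the double-positive stage the recombinase made of RAG1 and RAG2 cuts and rejoins the T cell receptor alpha locus, and terminal transferase, the product of Dntt, adds bases without a template at the joints. A thymocyte whose receptor binds CD1d on another thymocyte is selected as a stage 0 iNKT cell: it still carries CD24 on its surface, receives a strong receptor signal that induces Egr2, divides, and then becomes an IL-4-producing iNKT2, a RORγt+ iNKT17 or a T-bet+ iNKT1 cell. CD24 is the surface marker by which stage 0 is gated, and its loss is the usual sign of maturation.

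The genes lie on separate chromosomes except Rag1 and Rag2, which sit 5752 bases apart on chromosome 2. In GRCm38 (mm10) with the GENCODE vM21 annotation, Rag1 spans chr2:101638282-101649501 on the minus strand and Rag2 spans chr2:101624718-101632529 on the plus strand. Both lie inside the longer gene B230118H07Rik, whose exons overlap theirs, so their counts are uncertain to the extent that reads were split between them; B230118H07Rik itself held 19 UMIs in all libraries. Dntt is at chr19:41029275-41059525, Arpp21 at chr9:112065091-112235938, Cd24a at chr10:43578284-43584265, Slc29a1 at chr17:45585200-45599606, Marcksl1 at chr4:129513581-129515985 and Cldn10 at chr14:118787908-118875489. Marcksl1 lies 9.38 megabases from Hivep3, the targeted gene, which is also on chromosome 4. The part of this linkage in the genotype differences of Marcksl1 was not tested. Itm2a is X-linked, at chrX:107397099-107403376. Gm43352 is a 1-exon antisense gene at chr3:131109026-131112090 that shares 1620 bases with the start of Lef1 on the opposite strand, so without a stated strand setting for the counting its reads and those of Lef1 cannot be told apart there. A transcript of Cd24a matched the locus Gm6212, not analysed here, over 218 bases at 96.8% identity, and its count is uncertain to that extent.

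Promoter sequences of 300 bases (250 before and 50 after each start) were available from RefSeq on GRCm38.p6 for 8 of the 10 genes, Cd24a and Gm43352 having none. They are shown for the 3 recombination genes, which were found in the same few cells, for Itm2a and Marcksl1, whose loss from stage 0-like to dividing cells differed between genotypes, and for both starts of Cldn10, the gene that differed in the precursors. Capitals mark the E-box CANNTG, the letters bound by E proteins such as E2A and HEB, which are active in double-positive thymocytes.
Rag1 (chr2:101649483-101649782, minus strand): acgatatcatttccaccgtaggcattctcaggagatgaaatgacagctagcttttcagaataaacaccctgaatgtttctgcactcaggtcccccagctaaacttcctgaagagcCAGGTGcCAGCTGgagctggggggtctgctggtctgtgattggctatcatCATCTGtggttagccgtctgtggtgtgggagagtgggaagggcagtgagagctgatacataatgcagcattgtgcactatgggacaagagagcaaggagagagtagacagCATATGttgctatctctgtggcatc
Rag2 (chr2:101624462-101624761, plus strand): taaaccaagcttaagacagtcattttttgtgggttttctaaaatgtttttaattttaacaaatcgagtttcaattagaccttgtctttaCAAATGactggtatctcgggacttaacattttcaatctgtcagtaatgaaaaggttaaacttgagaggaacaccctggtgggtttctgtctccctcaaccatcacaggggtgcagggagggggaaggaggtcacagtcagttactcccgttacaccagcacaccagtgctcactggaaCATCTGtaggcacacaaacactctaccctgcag
Dntt (chr19:41029025-41029324, plus strand): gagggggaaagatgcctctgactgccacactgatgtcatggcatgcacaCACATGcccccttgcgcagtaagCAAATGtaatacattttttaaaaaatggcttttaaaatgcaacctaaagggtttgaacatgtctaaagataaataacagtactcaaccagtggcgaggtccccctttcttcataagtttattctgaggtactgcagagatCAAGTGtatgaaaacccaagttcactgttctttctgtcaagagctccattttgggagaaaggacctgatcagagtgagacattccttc
Itm2a (chrX:107403311-107403610, minus strand): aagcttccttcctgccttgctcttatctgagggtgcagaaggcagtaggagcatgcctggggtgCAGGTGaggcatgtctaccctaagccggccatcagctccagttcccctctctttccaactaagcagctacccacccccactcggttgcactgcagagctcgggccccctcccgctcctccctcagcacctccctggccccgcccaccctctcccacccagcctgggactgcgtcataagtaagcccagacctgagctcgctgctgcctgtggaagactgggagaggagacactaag
Marcksl1 (chr4:129513331-129513630, plus strand): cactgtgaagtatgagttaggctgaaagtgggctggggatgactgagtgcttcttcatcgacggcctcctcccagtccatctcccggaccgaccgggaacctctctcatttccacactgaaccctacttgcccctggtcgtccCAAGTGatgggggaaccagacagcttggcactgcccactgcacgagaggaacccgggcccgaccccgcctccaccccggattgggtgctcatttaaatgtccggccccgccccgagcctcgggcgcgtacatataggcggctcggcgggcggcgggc
Cldn10, upstream start (chr14:118787621-118787920, plus strand): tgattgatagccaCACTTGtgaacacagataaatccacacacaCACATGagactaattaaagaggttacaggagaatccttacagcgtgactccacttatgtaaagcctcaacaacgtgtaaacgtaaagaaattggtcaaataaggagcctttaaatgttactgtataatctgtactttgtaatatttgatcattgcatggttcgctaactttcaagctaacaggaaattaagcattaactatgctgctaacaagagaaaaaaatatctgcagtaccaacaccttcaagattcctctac
Cldn10, downstream start (chr14:118854700-118854999, plus strand): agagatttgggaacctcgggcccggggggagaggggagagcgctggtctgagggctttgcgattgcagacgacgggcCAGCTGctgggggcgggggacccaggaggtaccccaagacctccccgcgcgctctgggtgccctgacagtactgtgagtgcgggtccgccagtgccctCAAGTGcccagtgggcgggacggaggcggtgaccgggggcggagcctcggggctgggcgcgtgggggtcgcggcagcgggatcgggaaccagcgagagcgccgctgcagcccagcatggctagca

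The E-box was present in all 5 of the genes with 1 listed promoter, with 4 matches in Rag1, 3 in Dntt, 2 in Rag2 and 1 each in Itm2a and Marcksl1, but it is a short motif and occurred in 72.3% of 32851 mouse promoters of that length. The RUNX core TGTGGT, read on both strands, occurred in 16.8% of promoters and, of those 5, was found only in Rag1, at 2 positions. The TCF/LEF core CTTTGA (16% of promoters), the EGR core GCGTGGG (5.04%) and the NFAT core GGAAAA (23.4%), also searched on both strands, were in none of the 5. These matches describe letters and say nothing on binding.

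After filtering, 19647 cells were kept, between 3651 and 7231 per library, with a median of 4596 to 6833 UMIs per cell (the unique molecular identifiers that count captured transcripts). Libraries shared few barcodes, 254 over all pairs. Clustering without the 10 genes, and naming from markers that hold none of them, gave stage 0-like cells (347 and 115 in the C57BL/6 libraries, 362 and 400 in those labelled Hivep3-/-), cycling-like cells (1387, 466, 256 and 407 in the same order), and iNKT2-like, iNKT17-like and iNKT1-like cells. No cluster could be named double positive-like. C57BL/6 replicate 1 stood apart from the other 3 libraries by its sex-linked transcripts, with 17330 Xist UMIs and 0 Y-linked UMIs against at most 25 and at least 4107. Hivep3 did not pass as lower in the libraries labelled Hivep3-/- in any class: its level in stage 0-like cells was 648 and 319 CPM, the UMIs of the gene scaled to a common total, there against 249 and 313 CPM in C57BL/6, and in cycling-like cells it was higher by 1.24 on the log2 scale (SE 0.204, edgeR adjusted p = 0.0225). In iNKT17-like cells it was at 18.8, 8.15, 9.13 and 10.6 CPM (-0.54, adjusted p = 0.948), from 9 to 25 UMIs per library. The transcript count therefore does not check the labels, and every direction below is that of the libraries labelled Hivep3-/-. Values of 4 libraries are given in the order C57BL/6 replicate 1, C57BL/6 replicate 2, Hivep3-/- replicate 1, Hivep3-/- replicate 2.

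The 4 double-positive genes were rare. Rag1 was counted 17, 8, 6 and 20 times in the 4 libraries, Rag2 16, 1, 1 and 9 times, Dntt 98, 13, 40 and 89 times and Arpp21, which encodes an RNA-binding phosphoprotein, 57, 21, 32 and 43 times. They were concentrated in the few cells that held both Cd8a and Cd8b1, the 2 chains of the CD8 coreceptor, which iNKT cells shut off. Those cells numbered 32, 11, 34 and 47, or 124 of 19647 (0.631%), and they held 47 of 51 Rag1 UMIs (92.2%), all 27 Rag2 UMIs, 202 of 240 Dntt UMIs (84.2%) and 82 of 153 Arpp21 UMIs (53.6%). Such concentration was seen in every library for Rag1 (87.5% to 100%) and Dntt (67.5% to 90.8%), while Arpp21 was more spread in each (41.9% to 64.9%). A further 669 cells held only 1 of the 2 Cd8 transcripts.

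**Figure D1:**
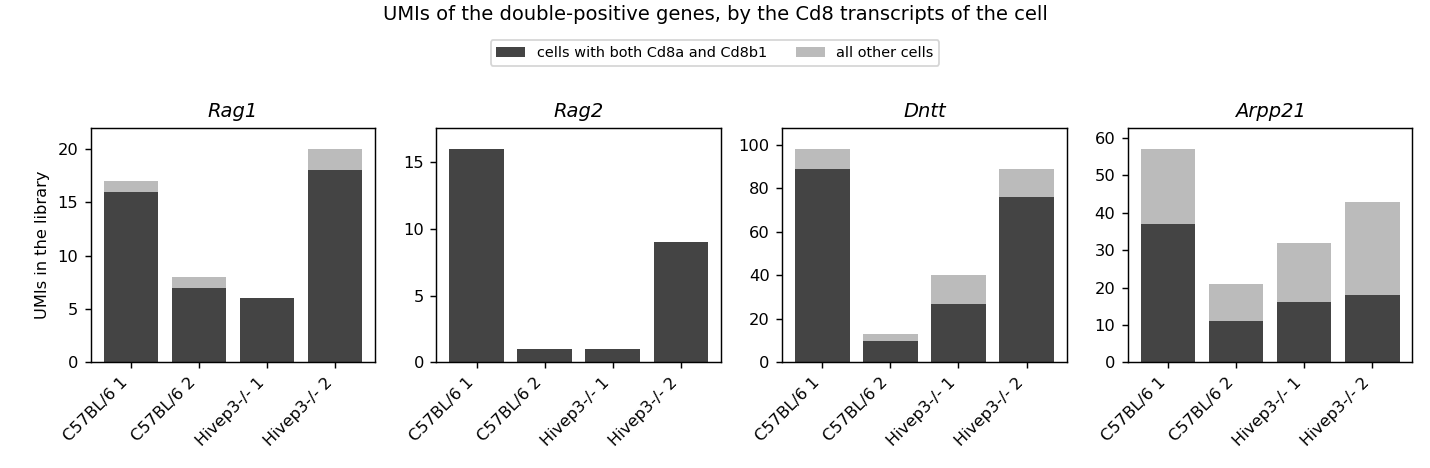
UMIs of Rag1, Rag2, Dntt and Arpp21 in each library (y axis, counts), split into cells with both Cd8a and Cd8b1 (dark) and all other cells (light). At least 87.5% of Rag1, 100% of Rag2 and 67.5% of Dntt UMIs lay in the dark part in each library, against 41.9% to 64.9% for Arpp21.

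The cells with both Cd8 transcripts were not of 1 kind. 65 of the 124 clustered as stage 0-like, 17 as cycling-like and 29 as iNKT1-like. The 29 were 2 and 0 in the C57BL/6 libraries and 14 and 13 in those labelled Hivep3-/-, where Cd8a was also higher over the whole iNKT1-like class (scaled levels 1.18 and 1.75 against 19.6 and 18.8 CPM, log2 difference 3.71, SE 0.252, edgeR adjusted p = 0.00179). 45 of the 124 carried a UMI of Rag1, Rag2 or Dntt. As a description of the pooled cells, those 45 held Arpp21 at 381 CPM, Themis at 262, Satb1 at 557 and Cd24a at 291, but Itm2a at only 267, Gm43352 at 38.1 and Hivep3 at 23.8 CPM. The other 79 held Itm2a at 845, Gm43352 at 123 and Hivep3 at 203 CPM with Arpp21 at 4.1 CPM. Themis and Satb1 act in thymocytes at the double-positive stage. The 45 cells were 19, 4, 5 and 17 by library, out of 32, 11, 34 and 47, so the 2 pools differ in their mix of genotypes, and over all 124 cells Itm2a stood at 107, 228, 1181 and 669 CPM and Hivep3 at 26.8, 45.6, 301 and 115 CPM. Cell kind and genotype cannot be told apart in the pooled levels. Of the 124 cells, 5 ranked in the top 5% of doublet scores of their library.

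At a finer resolution stage 0-like cells split into 2 clusters. The one with the higher Cd8b1 level is called the Cd8b1 cluster (155, 40, 134 and 159 cells). The other is called the Nrgn cluster (192, 75, 228 and 241 cells), a label only, as no level of Nrgn is given here. All stage 0-like UMIs of Rag1 and Rag2 fell in the Cd8b1 cluster. Rag1 stood there at 16.1, 73.7, 8.83 and 34.9 CPM, from 4 to 15 UMIs per library, and Rag2 at 9.67, 10.5, 2.21 and 18.6 CPM. In the Nrgn cluster both were at 0 in every library, which allows up to 2.63, 5.12, 1.61 and 1.57 CPM (3 counts per library, counting error only). Dntt went from 67.7, 105, 55.2 and 97.7 CPM in the Cd8b1 cluster to 0, 1.71, 2.68 and 2.09 CPM in the Nrgn cluster. Arpp21 went from 45.1, 137, 28.7 and 30.2 CPM to 3.5, 5.12, 1.07 and 1.57 CPM. Arpp21 rests on 13 or 14 UMIs per library in the Cd8b1 cluster and 2 to 4 in the Nrgn cluster, and Dntt on 0 to 5 in the latter, so no order of the genotypes is read from them. Zbtb16, which encodes the iNKT lineage factor PLZF, averaged 11.7 CPM in C57BL/6 and 2.27 CPM in Hivep3-/- in the Cd8b1 cluster. This rests on 7 UMIs over all libraries, so no order of the genotypes is read from it. In the Nrgn cluster Zbtb16 averaged 216 and 81.9 CPM. The order of the 2 clusters along maturation was not tested, and shares kept or lost between them compare levels only. The UMIs of Rag1 and Rag2 in cycling-like cells, 14 of each, all lay in cluster 11, the dividing cells led by histone genes and Top2a.

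In mature classes these genes were at or near the limit of detection. In iNKT17-like cells no UMI of Rag1, Rag2, Dntt or Arpp21 was seen in any library, and Rag2 was also at 0 in all 4 libraries of iNKT2-like and iNKT1-like cells, where a count of 0 allows up to 0.28 to 0.839 CPM and 0.172 to 0.342 CPM. The iNKT17-like class was the smallest of the named classes, at 619 cells, so a count of 0 allows a higher level there than in iNKT2-like or iNKT1-like cells. Dntt held 0 to 5 UMIs per library in these classes. A count this low also arises from RNA free in the suspension, and no presence in mature cells is read from it.

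Of the precursor genes, Cd24a, Cldn10 and Itm2a were lower in the Nrgn cluster than in the Cd8b1 cluster in every library, Cd24a the most so. Cd24a, the CD24 sialoglycoprotein, stood at 296, 348, 318 and 449 CPM in the Cd8b1 cluster and at 23.6, 34.1, 50.5 and 63.8 CPM in the Nrgn cluster. The latter was 12% ± 3.69 (SD, n = 4) of the former. In cycling-like cells it was at 3.34, 0.835, 4.96 and 9.26 CPM and in iNKT1-like cells at 0.522, 0.114, 0.919 and 0.815 CPM. Each library of the Nrgn cluster was below each of the Cd8b1 cluster, and each of the cycling-like class below each of the Nrgn cluster, whereas the cycling-like and iNKT1-like ranges overlapped. Of 265 Cd24a UMIs outside stage 0-like cells, 35 were in the 28 cells that also held Cd79a, a B cell gene, and B cells express Cd24a.

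Itm2a encodes a membrane protein induced when thymocytes are positively selected. It was at 2810, 3812, 4081 and 3821 CPM in the Cd8b1 cluster and at 1412, 1752, 1787 and 1645 CPM in the Nrgn cluster, 45.8% ± 3.23 (SD, n = 4) of the former. The share of cells with an Itm2a UMI differed less. After thinning it averaged 88.6% and 85.3% in the 2 clusters in C57BL/6, and 91.6% and 84.4% in the libraries labelled Hivep3-/-. Before thinning it was higher in the Nrgn cluster (81.3% against 96.8%, and 85.8% against 96.2%). In cycling-like cells the level of Itm2a had dropped to 41.7, 41.9, 93.6 and 164 CPM. Itm2a was at 27.8, 26, 39.7 and 52.7 CPM in iNKT2-like cells and at 6.03, 1.81, 4.56 and 0.886 CPM in iNKT17-like cells. In iNKT1-like cells it was at 84.5, 99.2, 57.8 and 60.4 CPM. This was above the cycling-like level of the same library in C57BL/6 and below it in the libraries labelled Hivep3-/-. In every library the order was iNKT1-like above iNKT2-like above iNKT17-like. Over the iNKT1-like clusters it was highest in cluster 4, led by Ccl1 and Gzmb, at 107, 114, 79.1 and 81.6 CPM, and lower in cluster 2, led by Ccl5 and Gzma, at 58.1, 63.6, 42 and 49.6 CPM.

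Cldn10 encodes a claudin, a membrane protein known from the tight junctions of epithelia. It was at 377, 474, 607 and 524 CPM in the Cd8b1 cluster, at 77.9, 78.5, 251 and 237 CPM in the Nrgn cluster and at 12.1, 13.4, 9.29 and 13.8 CPM in cycling-like cells. In iNKT2-like cells it stood at 15.2, 24.9, 28.2 and 21.8 CPM, above the cycling-like level of the same library in all 4, whereas iNKT17-like cells held 0 to 3 UMIs and iNKT1-like cells 0.456 to 1.63 CPM. In every library Cldn10 was higher in iNKT2-like than in iNKT17-like or iNKT1-like cells.

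Slc29a1, the equilibrative nucleoside transporter ENT1, and Marcksl1, an actin- and membrane-binding protein of the MARCKS family, did not share this difference between the stage 0-like clusters. The Nrgn cluster kept 98.6% ± 9.31 of the Slc29a1 level of the Cd8b1 cluster and 88.6% ± 4.97 of that of Marcksl1 (SD, n = 4). Slc29a1 was at 1035, 806, 1365 and 924 CPM in stage 0-like cells, 139, 134, 201 and 249 CPM in cycling-like cells, 61.6, 61.7, 53.1 and 49.5 CPM in iNKT2-like cells and 28.9, 32.3, 38.1 and 36.8 CPM in iNKT1-like cells. Marcksl1 was at 498, 489, 467 and 496 CPM in stage 0-like cells, 90.7, 59.8, 140 and 154 CPM in cycling-like cells, 48.5, 24.7, 24 and 33 CPM in iNKT2-like cells and 8.05, 4.34, 5.74 and 6.44 CPM in iNKT1-like cells. The stage 0-like level of Marcksl1 was even among libraries, and its loss to iNKT1-like cells went further than that of Slc29a1 in each library.

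Gm43352, the antisense gene at Lef1, likewise did not fall between the stage 0-like clusters, 118% ± 21.1 (SD, n = 4) being kept. It was at 832, 639, 609 and 496 CPM in stage 0-like cells, at 63.6, 46.2, 84.6 and 85.7 CPM in cycling-like cells, at 36.7, 22.4, 25.4 and 25.7 CPM in iNKT2-like cells and at 4.28, 2.05, 1.21 and 1.71 CPM in iNKT1-like cells. It was lost faster than Lef1, the gene of a high mobility group factor of T cell progenitors. For every 100 Lef1 UMIs there were 31.9 to 41.6 Gm43352 UMIs in stage 0-like cells, 19.8 to 22.6 in cycling-like cells, 11.8 to 18.4 in iNKT2-like cells and 4.28 to 7.27 in iNKT1-like cells. The ranges of these successive classes did not overlap, so the 2 counts were not in 1 ratio in these 4 classes. In iNKT17-like cells the values were 18.2, 8.33, 0 and 26.7, from 15 to 66 Lef1 UMIs, and overlapped the later classes, and in cluster 7, described next, they were 25.6 to 32.7, overlapping stage 0-like cells.

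An unnamed cluster led by Tnni1, Klrb1a and Htra3 (cluster 7, with 175, 27, 277 and 374 cells) held Itm2a at 184, 285, 161 and 172 CPM and Gm43352 at 179, 253, 112 and 92.3 CPM, below the stage 0-like and above the cycling-like level of the same library in all 4. Slc29a1, at 314, 361, 168 and 144 CPM, was above the cycling-like level in the C57BL/6 libraries and below it in those labelled Hivep3-/-. Cd24a was already at 2.6, 3.17, 3.2 and 6.61 CPM. These genotype differences within cluster 7 were not tested.

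**Figure D2:**
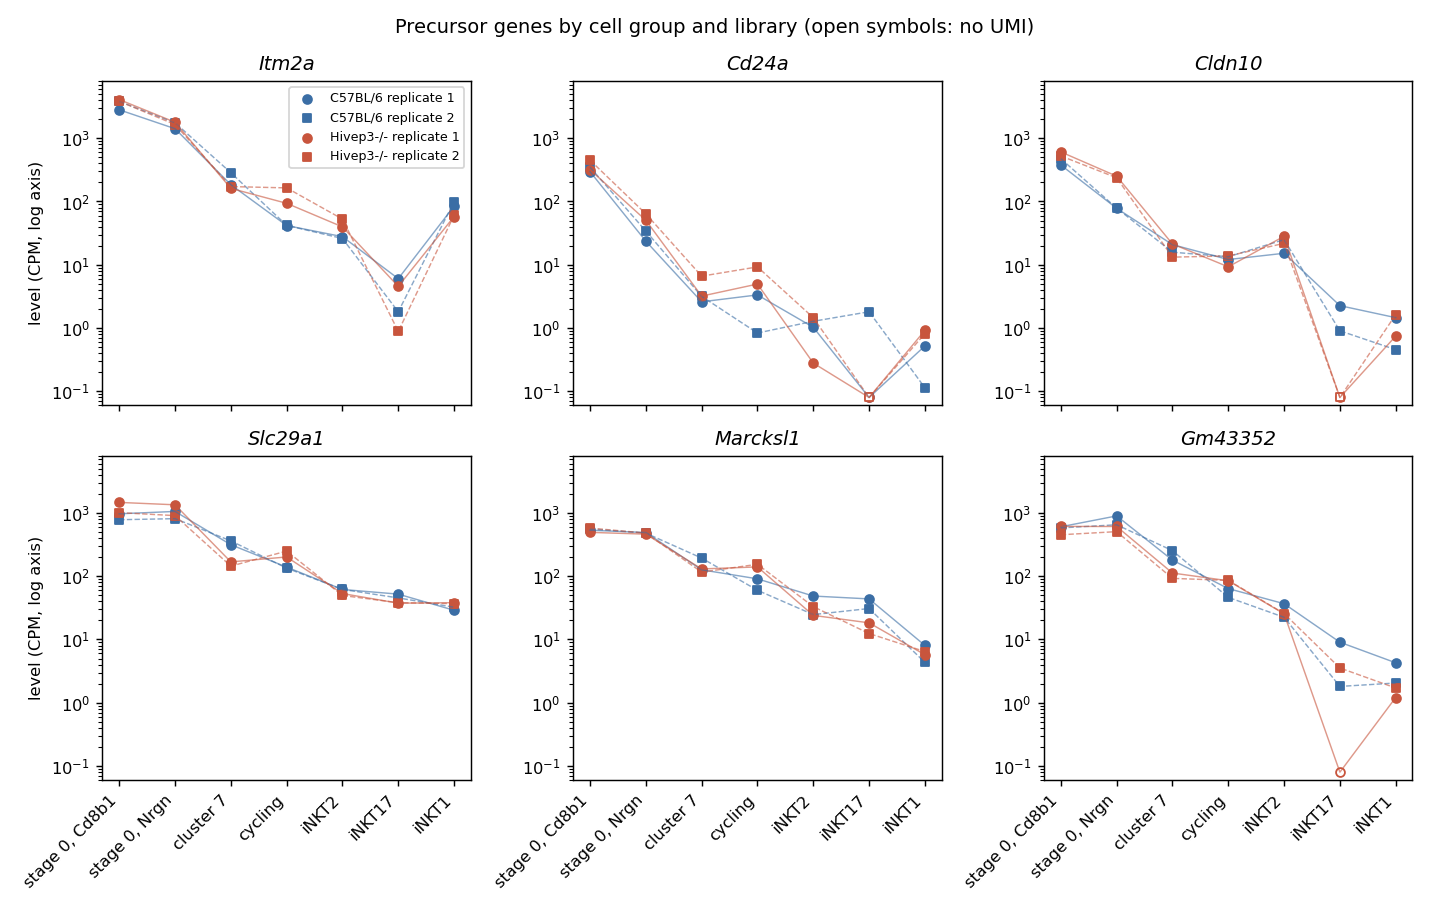
Level of 6 precursor genes (y axis, CPM on a log scale) by cell group (x axis) in each library (colour for genotype, symbol for replicate, open symbols for groups without a UMI). Cd24a, Cldn10 and Itm2a are lower in the Nrgn than in the Cd8b1 cluster of stage 0-like cells. Slc29a1, Marcksl1 and Gm43352 stand in the Nrgn cluster at 88.6% or more of their Cd8b1-cluster level on average. Itm2a is higher in iNKT1-like than in iNKT17-like cells in each library.

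Expressed as percent of the stage 0-like level of the same library, the 6 genes fell into a fast and a slow group by the cycling-like class. Itm2a kept 4.17% ± 2.72, Cd24a 4.21% ± 2.41 and Cldn10 6.54% ± 3.28, while Slc29a1 kept 18% ± 6.16 and Marcksl1 22.9% ± 9.2 (SD, n = 4). No library of the first 3 genes was above 10% and none of the last pair was below 12.2%. Among the first 3 the order differed by genotype. In C57BL/6 Itm2a kept 2.25% ± 0.276 and Cldn10 9.25% ± 1.06 (SD, n = 2). In the libraries labelled Hivep3-/- they kept 6.09% ± 2.7 and 3.83% ± 1.32 (SD, n = 2). Slc29a1 (13.5% to 27%) and Marcksl1 (12.2% to 31%) overlapped. Gm43352, at 11.5% ± 4.91, overlapped both. The grouping did not hold in iNKT2-like cells, where Cldn10 was kept most, at 11.4% ± 5.01. There Marcksl1 kept 6.65% ± 2.19, Slc29a1 5.71% ± 1.56, Gm43352 4.32% ± 0.697, Itm2a 1.81% ± 0.553 and Cd24a 1.06% ± 0.579. In iNKT1-like cells the order had changed: Gm43352 kept 0.345% ± 0.13, Cldn10 0.542% ± 0.353, Cd24a 0.571% ± 0.311 and Marcksl1 1.26% ± 0.297, and the 2 genes kept most were Slc29a1 at 3.4% ± 0.693 and Itm2a at 3.84% ± 1.24. In iNKT17-like cells Itm2a was lowest, at 0.172% ± 0.138, and Marcksl1 was kept at 5.37% ± 2.76. These percents compare shares of all UMIs and not transcripts per cell. The cycling-like clusters had medians of 10609.5 to 14721 UMIs per cell, and stage 0-like cells 4478. As the genes were chosen as precursor genes, their fall is a description and was not tested.

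The fall was also a fall in the share of cells with a transcript. Cells differ in depth between classes and libraries, so each was thinned to 2000 UMIs, which left out 750 cells under that depth, 502 of them in C57BL/6 replicate 1. An Itm2a UMI was then found in 83%, 89.3%, 88.2% and 85.4% of stage 0-like cells (90.2% to 93.6% before thinning) and in 7.39%, 5.58%, 14.7% and 22.4% of cycling-like cells (27.3%, 29.2%, 44.1% and 59.2% before thinning), against at most 0.758% of iNKT17-like cells. The intervals of the cycling-like shares (exact binomial, 95%, counting error only) were 6.07% to 8.9% and 3.68% to 8.07% in C57BL/6 and 10.6% to 19.7% and 18.4% to 26.8% in the libraries labelled Hivep3-/-. They treat cells of 1 mouse and are no comparison of genotypes. A Cldn10 UMI was found in 22.1% and 23.3% of stage 0-like cells in C57BL/6 and in 41.1% and 40.9% in the libraries labelled Hivep3-/-, against 0%, 0.787%, 0% and 0% of iNKT17-like cells. Cd24a, the gating marker, was seen in only 9.49%, 17.5%, 18.1% and 20.4% of stage 0-like cells at this depth, and in 22.7% to 37.9% of the Cd8b1 cluster. In cycling-like cells Slc29a1 was seen in 18.8% and 17.6% against 33.9% and 30%, Marcksl1 in 15.1% and 10.1% against 24.7% and 25.4%, and Gm43352 in 9.2% and 7.08% against 15.9% and 15.5%. Slc29a1, Marcksl1 and Gm43352 were seen in 68.9% to 81.6%, 59.2% to 66% and 51.8% to 68.4% of stage 0-like cells.

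**Figure D3:**
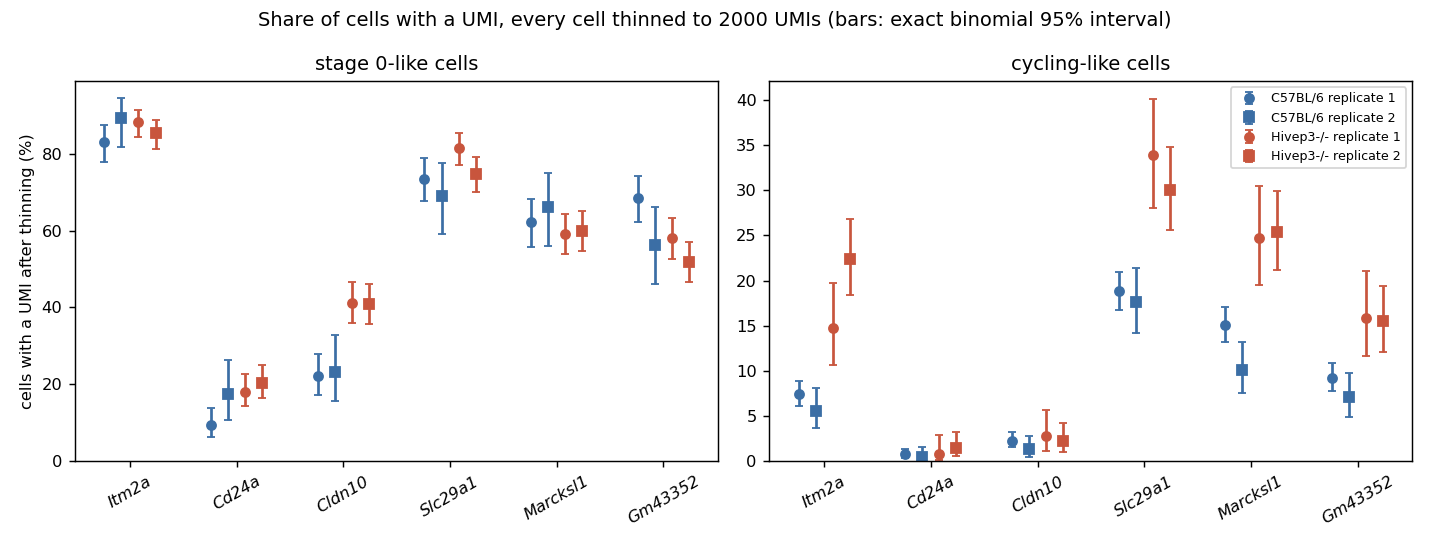
Percent of cells with at least 1 UMI of each precursor gene after thinning to 2000 UMIs per cell (y axis), for stage 0-like and cycling-like cells of each library (points, with exact binomial 95% intervals). Itm2a goes from 83% to 89.3% of stage 0-like cells to 5.58% to 22.4% of cycling-like cells, and the intervals cover counting error within a library only.

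To ask whether loss of HIVEP3 went with a change in these genes, UMI sums per mouse and class were compared with the edgeR quasi-likelihood test over all genes of the class. In stage 0-like cells 9 of the 10 genes were tested (Rag2 was too low) and 1 passed, where 0.275% of 8722 genes did. The gene was Cldn10, at scaled levels of 148 and 142 CPM in C57BL/6 and 299 and 288 CPM in the libraries labelled Hivep3-/-. Both of the latter were higher than both of the former, by 1.02 on the log2 scale (SE 0.159, 95% interval 0.67 to 1.36, adjusted p = 0.0195). Leaving out C57BL/6 replicate 1 gave 1.05 with an adjusted p of 0.166, and leaving out C57BL/6 replicate 2 gave 0.99 with an adjusted p of 0.154, so the size held but the call rested on both libraries. The median difference of the 9 genes was -0.01 against 0.02 over all genes tested.

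The Cldn10 difference was larger in the Nrgn than in the Cd8b1 cluster of stage 0-like cells. In the Nrgn cluster it was 1.52 (SE 0.171, edgeR adjusted p = 0.00399, where 0.459% of 8276 genes passed) and in the Cd8b1 cluster 0.35 (SE 0.208, adjusted p = 0.973, where 0% of 5219 genes passed and edgeR gave an unadjusted p under 0.05 for 245). The share of the Cd8b1-cluster level kept in the Nrgn cluster was 20.7% and 16.6% in C57BL/6 and 41.4% and 45.2% in the libraries labelled Hivep3-/-. A test of the difference between the clusters, with the library as a block and over all 6723 genes, gave 1.14 (SE 0.21, 95% interval 0.72 to 1.56, edgeR adjusted p = 0.000663), with 0.327% of genes passing and no other of the 10. DESeq2, which called 0.0149% of genes, gave 1.18 with an adjusted p of 0.276, and without C57BL/6 replicate 1 edgeR gave 1.24 with an adjusted p of 0.0625. Cd24a, whose kept share was 7.97% and 9.82% against 15.9% and 14.2%, differed by 0.76 between the clusters (SE 0.288, adjusted p = 0.457).

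Of the 9 genes, 4 had an unadjusted p under 0.05 in stage 0-like cells. Cd24a was at 85.4, 82.6, 95.9 and 134 CPM after scaling, higher in both libraries labelled Hivep3-/- (0.45, adjusted p = 0.593). Gm43352 was at 867, 678, 569 and 492 CPM after scaling and Arpp21 at 12.9, 24.9, 6.05 and 6.79 CPM. These last 2 were lower in the libraries labelled Hivep3-/-. None of the 3 overlapped between genotypes, as 38.1% of genes tested were apart in either direction, and none passed (log2 difference -0.55, adjusted p = 0.309, for Gm43352 and -1.44, adjusted p = 0.294, for Arpp21). Itm2a (0.06), Slc29a1 (0.18) and Marcksl1 (-0.16) had the smallest differences of the tested precursor genes, with 95% intervals of -0.303 to 0.429, -0.241 to 0.595 and -0.495 to 0.174.

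In cycling-like cells 8 of the 10 genes were tested and 1 passed, where 3.58% of 10359 genes did. It was Itm2a, at 43.9 and 44.7 CPM in C57BL/6 and 86.7 and 158 CPM in the libraries labelled Hivep3-/-. These did not overlap, as 49.4% of genes tested did not, and the difference was 1.47 on the log2 scale (SE 0.265, 95% interval 0.85 to 2.1, adjusted p = 0.0301). Without C57BL/6 replicate 1, the library that differed in sex-linked transcripts, it was 1.46 (adjusted p = 0.000471), and without Hivep3-/- replicate 2, the highest of the 4, it was 0.95 (adjusted p = 0.0285). The call was lost when the 10 genes were included among the variable genes used for clustering (1.37, adjusted p = 0.0542). Marcksl1 (95.6, 63.9, 130 and 149 CPM), Slc29a1 (147, 143, 187 and 241 CPM) and Gm43352 (67, 49.3, 78.4 and 82.8 CPM) were also higher in both libraries labelled Hivep3-/-, as 25.3% of genes tested were, but did not pass (differences of 0.8, 0.56 and 0.46, adjusted p = 0.088, 0.101 and 0.229). Cd24a (3.52, 0.891, 4.59 and 8.95 CPM) and Arpp21 (2.01, 0.297, 2.58 and 3.16 CPM) were higher in both as well, with differences of 1.5 and 1.09 (adjusted p = 0.222 and 0.447). Of the 8, 5 had an unadjusted p under 0.05, and DESeq2 called 2, Itm2a and Marcksl1 (3.94% of genes called). The median difference of the 8 genes was 0.68 against 0.03 over all genes.

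The cycling-like class joins clusters in different phases, and their mix differed between libraries, so the 3 larger clusters, with 38 or more cells in every library, were each tested alone. Itm2a was higher in the libraries labelled Hivep3-/- in cluster 5, led by the replication genes Ung, Hells and Mcm3 (36.4, 36.9, 79.9 and 103 CPM, log2 difference 1.18, edgeR adjusted p = 0.0138, 3.51% of genes passing). It was higher in cluster 9, led by the mitotic genes Ccnb2 and Cenpa (36.9, 31.7, 74.4 and 137 CPM, 1.56, adjusted p = 0.0318, 1.81% passing), and in cluster 11 (67, 61.2, 224 and 281 CPM, 1.86, adjusted p = 0.000317, 3.23% passing). Both libraries labelled Hivep3-/- lay above both C57BL/6 libraries in all 3 clusters. In cluster 11 alone, 3 more of the genes passed: Slc29a1 (226, 195, 455 and 446 CPM, 0.95, adjusted p = 0.0068), Marcksl1 (122, 86.8, 273 and 215 CPM, 1.04, adjusted p = 0.0155) and Gm43352 (54.9, 48.8, 122 and 124 CPM, 1.1, adjusted p = 0.0106). These 3 did not pass in clusters 5 and 9: the differences were 0.21 and 0.18 for Slc29a1 (adjusted p = 0.409 and 0.681), 0.6 and 1.26 for Marcksl1 (adjusted p = 0.199 and 0.0822) and 0.21 and 0.83 for Gm43352 (adjusted p = 0.646 and 0.14). Cldn10 was at 13.7, 19.2, 9.11 and 10.5 CPM in cluster 5 (-0.85, adjusted p = 0.192), at 8.92, 8.16, 5.58 and 7.57 CPM in cluster 9 (-0.43, adjusted p = 0.711) and at 12.8, 7.75, 24.9 and 24.5 CPM in cluster 11 (1.05, adjusted p = 0.186), so that its direction was not the same in the clusters. Whether the difference of any gene varies between the clusters was not tested. The levels here are unscaled, the differences scaled. Cluster 11 had 193, 75, 38 and 121 cells. It held 103 of the 108 Dntt UMIs of cycling-like cells, 67, 0, 3 and 33 by library, and all those of Rag1 and Rag2. The part of the cells with these transcripts in its differences was not tested.

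**Figure D4:**
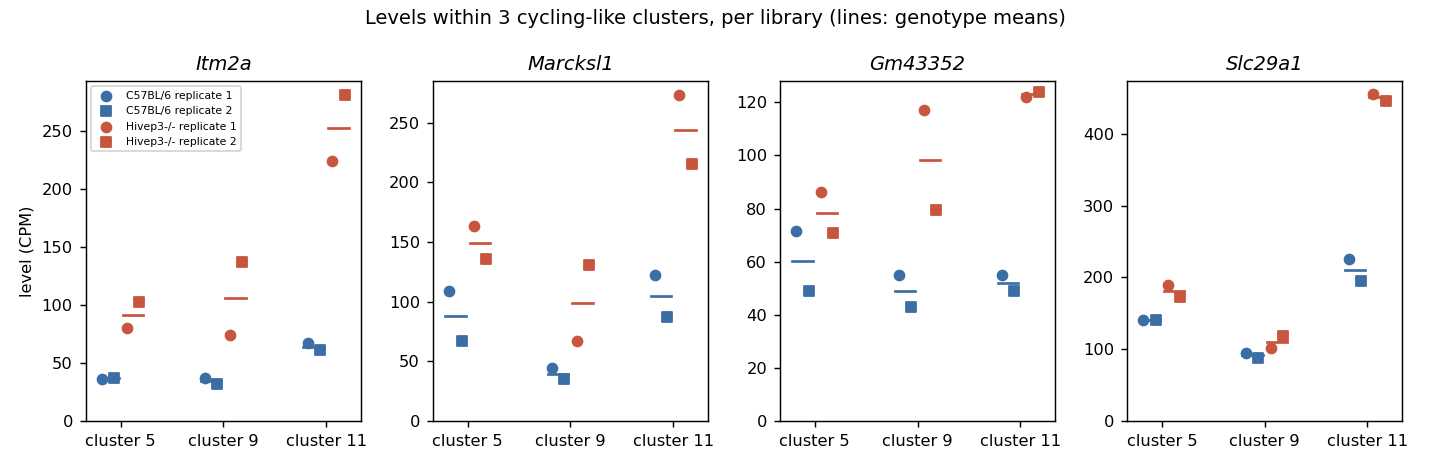
Level (y axis, CPM) of Itm2a, Marcksl1, Gm43352 and Slc29a1 in cycling-like clusters 5, 9 and 11 of each library (points, lines for the mean of a genotype). Libraries labelled Hivep3-/- lie above the C57BL/6 libraries for Itm2a in each cluster and for all 4 genes in cluster 11.

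Whether the loss from stage 0-like to cycling-like cells itself differed was tested as an interaction, with the library as a block. 4 of 9 genes passed, where 2.41% of 11060 genes did. Itm2a kept 2.25% ± 0.276 of its stage 0-like level in C57BL/6 and 6.09% ± 2.7 in the libraries labelled Hivep3-/- (SD, n = 2 each), a difference of 1.35 on the log2 scale (SE 0.186, edgeR adjusted p = 0.000247). Gm43352 kept 7.44% ± 0.297 and 15.6% ± 2.4 (1.0, SE 0.14, adjusted p = 0.000279), and Marcksl1 kept 15.2% ± 4.24 and 30.6% ± 0.636 (0.93, SE 0.175, adjusted p = 0.00422). The Gm43352 level itself differed by -0.55 in stage 0-like and by 0.46 in cycling-like cells, neither passing in edgeR (adjusted p = 0.309 and 0.229). Lef1, with which Gm43352 shares bases, passed the same edgeR interaction (0.73, adjusted p = 0.00275), so the 2 results are not independent. Cldn10 went the other way, with 9.25% ± 1.06 and 3.83% ± 1.32 kept (-1.25, SE 0.297, adjusted p = 0.0261), its cycling-like level differing by -0.26 (adjusted p = 0.656). So 3 genes were retained more, where 1.52% of genes passed upward, and Cldn10 less. Of 23 other early thymocyte genes tested in the same edgeR interaction, from a list described below, 6 passed upward, Lef1 among them, and 2 downward. Their median was 0.36. Passing was therefore not particular to the genes followed here. In cluster 11 alone Cldn10 stood at 9.06% and 5.8% of its stage 0-like level in C57BL/6 and at 7.75% and 8.46% in the libraries labelled Hivep3-/-. The median of the 9 was 0.94 against -0.02 over all genes. The interactions of Itm2a, Gm43352 and Marcksl1 passed in each of 13 alternatives, and that of Cldn10 failed in 6 of 13, DESeq2 among them (adjusted p = 0.488, 1.98% of genes passing).

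Other transcripts moved with these in cycling-like cells. The summed level of 12 iNKT1 markers was 507 and 533 CPM in C57BL/6 and 2300 and 1571 CPM in the libraries labelled Hivep3-/-, that of 14 stage 0 markers 1929 and 1633 against 3376 and 2994 CPM, and that of 9 iNKT2 markers 1710 and 1653 against 1031 and 911 CPM, all markers of the 3 lists being detected. The 10 double-positive markers, all detected, summed to 330 and 340 against 291 and 249 CPM. Of 5 thymic epithelial markers, 2 were detected (Krt5, Foxn1 and Psmb11 at 0), summing to 3.34 and 3.76 against 19.8 and 25.4 CPM. In stage 0-like cells, where Cldn10 was higher, 2 of the 5 were detected (Krt5, Krt8 and Psmb11 at 0) and summed to 45.4 and 47 against 79.5 and 73.4 CPM, whose part in that difference was not tested. The part of the mix of cells in the differences of Itm2a, Marcksl1 and Gm43352 was not tested. Without the cells holding both Cd8 transcripts, Itm2a differed by 1.49 (adjusted p = 0.0277).

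In the mature classes none of the genes passed. In iNKT2-like cells 5 were tested (0.253% of 9500 genes passed), with an edgeR p under 0.05 for 2 and 0 called by DESeq2, which called 0.779% of genes. Itm2a was at 28.6, 27.1, 37.4 and 52.8 CPM (0.69, adjusted p = 0.311) and Slc29a1 at 63.3, 64.4, 50 and 49.6 CPM (-0.36, adjusted p = 0.509), neither overlapping between genotypes, as 40.6% of genes did not. In iNKT17-like cells 2 were tested (0.0655% of 7634 passed): Marcksl1, at 44.7, 32.4, 17.5 and 12.7 CPM, was lower in both libraries labelled Hivep3-/- by 1.36 (log2 difference -1.36, SE 0.328, adjusted p = 0.27; 1 gene with p under 0.05 and 0 called by DESeq2, which called 0.105% of genes). Of all genes, 35.3% did not overlap there. In iNKT1-like cells 5 were tested (0.576% of 10592 passed), with an edgeR p under 0.05 for 2, and DESeq2 called 1, Itm2a (1.44% of genes called). Itm2a was at 86.9 and 102 CPM against 53.9 and 61.8 CPM, lower in both libraries labelled Hivep3-/-, where 37.3% of genes did not overlap (log2 difference -0.7, SE 0.146, edgeR adjusted p = 0.124).

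The interaction from stage 0-like to iNKT1-like cells passed for 1 of 9 genes, Itm2a, where 2.22% of 11060 genes did. It kept 4.9% ± 0.0566 of its stage 0-like level in C57BL/6 and 2.77% ± 0.262 in the libraries labelled Hivep3-/- (SD, n = 2 each; -0.77, SE 0.177, edgeR adjusted p = 0.0233), but the call was lost with DESeq2 (adjusted p = 0.0633, 2.14% of genes passing) and without C57BL/6 replicate 1 or 2 (adjusted p = 0.3 and 0.225). Itm2a was thus higher in cycling-like and lower in iNKT1-like cells of the libraries labelled Hivep3-/-, the former alone passing as a level. For iNKT2-like cells the interaction passed for 0 of 9 genes in edgeR (1.08% of genes passing, p under 0.05 for 3) and for 0 in DESeq2 (1.17% passing).

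**Figure D5:**
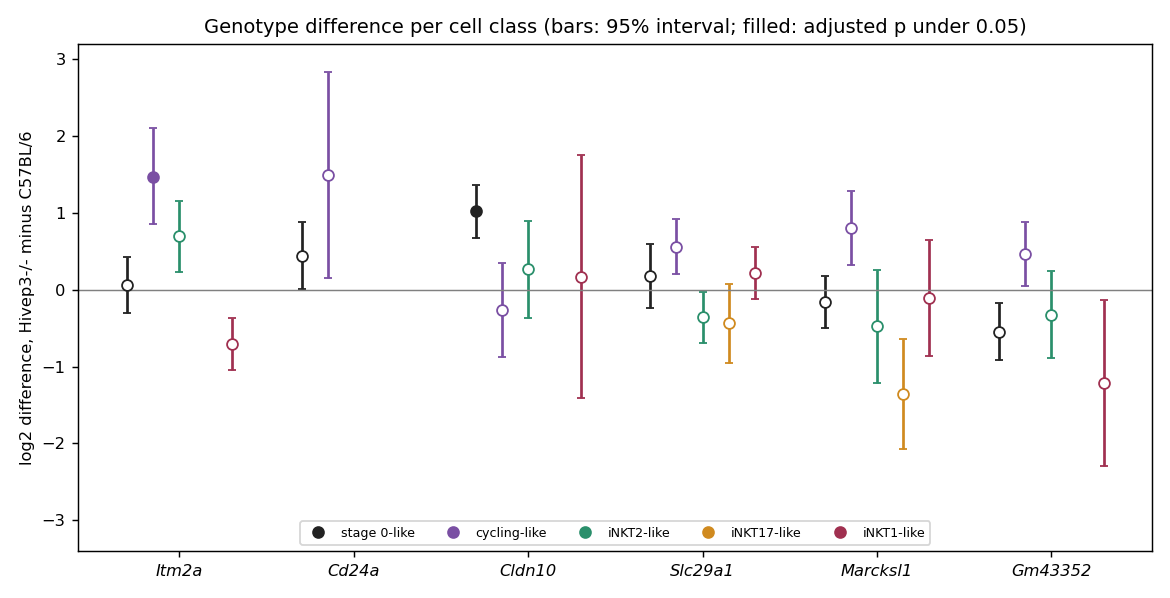
Log2 difference between libraries labelled Hivep3-/- and C57BL/6 (y axis; points with 95% intervals from edgeR) for the 6 precursor genes in each class in which they were tested (colour). Filled points passed at an adjusted p under 0.05: Cldn10 in stage 0-like and Itm2a in cycling-like cells.

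Summed over all cells of a library, where the makeup of the sort enters, 0 of 9 genes passed in edgeR (0.765% of 12291 genes did), with a p under 0.05 for 4, and DESeq2 called 3 (3.36% of genes called). Itm2a was at 112, 128, 203 and 234 CPM (0.87, adjusted p = 0.058), Cldn10 at 14.3, 12.3, 26.5 and 29.1 CPM (1.06, adjusted p = 0.0552) and Cd24a at 4.71, 3.01, 8.05 and 13.3 CPM (1.45, adjusted p = 0.141). All 3 were higher in both libraries labelled Hivep3-/-, as 23.6% of genes were (44% were apart in either direction). Those libraries also held larger shares of stage 0-like cells, 7.87% and 9.6% against 4.8% and 3.15%. A larger number of precursors and more transcript per cell cannot be told apart in these sums.

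Genes of the same processes were read from lists. Of 13 genes that join the ends cut by RAG, such as Xrcc5 and Xrcc6 (the Ku proteins) and Hmgb2, a RAG cofactor, 12 were tested in stage 0-like cells and none passed in any of the 5 classes in edgeR. The unadjusted p was under 0.05 for 0, 1, 1, 2 and 1 of them in stage 0-like, cycling-like, iNKT2-like, iNKT17-like and iNKT1-like cells, and DESeq2 called 0 in each class. The largest differences were those of Hmgb2 in iNKT17-like cells (297, 287, 182 and 199 CPM, -0.62, adjusted p = 0.398) and of Xrcc5 and Xrcc6 in stage 0-like cells (0.5 and 0.47, adjusted p = 0.75 and 0.639). Of 24 other early thymocyte genes, 23 were tested in stage 0-like cells and 1 passed. It was Ccr9, a chemokine receptor of thymocytes, at 96.1, 150, 39.1 and 54.3 CPM and lower in the libraries labelled Hivep3-/- (-1.36, adjusted p = 0.0402). Ccr9 was also lower in iNKT2-like cells (-3.53, adjusted p = 0.00245) and in cycling-like cells, where it was at 207 and 235 CPM against 12.6 and 6.49 CPM (-4.59, adjusted p = 0.000747).

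In cycling-like cells, where 3.58% of all genes passed, 3 of 22 tested early genes were higher, namely Cd2 (0.94), the Sox factor gene Sox4 (1.23) and Mns1 (0.99), and 2 were lower, Ccr9 and the chromatin organiser gene Satb1 (-1.5), with adjusted p between 0.000747 and 0.0453. In this class 18 of the 22 had an unadjusted p under 0.05 and DESeq2 called 8. The list did not move 1 way, its median being 0.48 against 0.03 over all genes. Egr2, the largest difference that did not pass, was at 15.6, 4.75, 41 and 19.6 CPM (1.47, adjusted p = 0.201). In iNKT1-like cells Cd8a (3.71) and Tcf7 (0.87, adjusted p = 0.0433) were higher and Lef1 (-1.3, adjusted p = 0.0239) lower; Tcf7 and Lef1 encode related factors of the T cell lineage and went opposite ways.

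Beside Slc29a1, of 13 genes that handle nucleosides 12 were tested in cycling-like cells and 1 passed: Adk, adenosine kinase, at 68.6, 68.5, 129 and 170 CPM, higher in the libraries labelled Hivep3-/- by 1.13 (SE 0.166, adjusted p = 0.0153). Samhd1, which degrades deoxynucleotides, and Uck2, a uridine kinase, had the largest differences that did not pass, in iNKT17-like cells (0.8 and -0.68, adjusted p = 0.227 and 0.811). Of 7 paralogs of the precursor genes, 7 were tested in cycling-like cells and 6 in stage 0-like cells and none passed in any class in edgeR. The unadjusted p was under 0.05 for 2 in cycling-like cells and for 0 in each other class, and DESeq2 called 0 in each. In stage 0-like cells Itm2b was at 522, 572, 470 and 473 CPM (-0.21, adjusted p = 0.796), Itm2c at 212, 204, 200 and 159 CPM (-0.22, adjusted p = 0.821) and Marcks at 16.5, 32.7, 14.1 and 21.6 CPM (-0.35, adjusted p = 0.899).

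Over 20 profiles (5 classes in 4 libraries, log2 of CPM plus 1), the genes whose pattern was most like that of each gene were sought among 5879 with at least 20 CPM in 1 class of every library. These correlations describe profiles that share libraries and classes, with no test. Gm43352 was most like Lef1 (Pearson r = 0.981) and Fmnl3 (0.976). Cd24a was most like Ctsl (0.978) and Sept7 (0.973), and Ctsl, the gene of cathepsin L, was also among the 2 most like Dntt (0.966) and Rag1 (0.929). Slc29a1 was most like Pdk3 (0.986) and Cisd2 (0.982), Marcksl1 most like Smarcad1 (0.98) and Pebp1 (0.974), and Cldn10 most like Zfp330 (0.956) and Lef1 (0.954). Itm2a was most like Tmsb10 (0.961) and Ikzf1 (0.949). For the sparse genes the likeness rests on few UMIs: it was 0.945 for Rag1 with Ik, 0.892 for Rag2 with Ik, 0.955 for Dntt with Cdc5l and 0.959 for Arpp21 with Zwint.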

How the data were processed

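Thymocytes of 4 mice were profiled with the 10x 5′ kit. The authors deposited unnormalized UMI counts per gene and cell, made with Cell Ranger 3.1.0 on mm10 per the labels; Seurat 3.1.4 is also in the submitters' processing notes. The strand setting of the counting is not stated. Cells with 500 to 4100 genes, at least 1000 UMIs and under 6% mitochondrial UMIs were kept. Scrublet called only 1, 4, 1 and 4 doublets, so that it did not work here, and none were removed. Cells were clustered in Seurat 5.3.0 (2000 variable genes without the 10 genes, 30 components, mutual nearest neighbour correction with 20 neighbours, resolution 0.8; 1.2 for the finer clusters). A cluster was named when at least 3 markers of 1 list were among its top 20 genes.

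UMIs were summed per library and class. CPM are given unscaled for levels and scaled by the effective library size beside tests of a class. Genotypes were compared with edgeR 4.0.16 (filterByExpr, TMM, quasi-likelihood test, two-sided, Benjamini-Hochberg over all genes, threshold 0.05); DESeq2 1.42.0 was an alternative. The fits were tested on simulated counts. Each library is 1 mouse. The p-values rest on 2 mice a genotype and on variance estimates shared over all genes, so they do not measure the spread between mice for 1 gene alone. In the interaction tests, with the library as a block, they rest on the spread of class differences within libraries. Intervals on shares and limits from a count of 0 cover counting error only. Other genes named were Hivep3, those of 4 lists that passed or were among the 3 largest differences at a mean of at least 20 CPM, and the 2 most like each of the 10. Cd8a, Cd8b1, Themis, Satb1 and the clusters within a class were chosen after their values were seen. The genes and lists were chosen with earlier results of these data known.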

Additional observations from a re-analysis of the deposited data

Results flagged for a closer look

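6 differences between genotypes were larger in one cell group than in another by a direct test (edgeR interaction with the library as a block, adjusted over all genes). From stage 0-like to cycling-like cells the genotype difference, on the log2 scale and as Hivep3-/- minus C57BL/6, rose by 1.35 for Itm2a, by 1.0 for Gm43352 and by 0.93 for Marcksl1, and changed by -1.25 for Cldn10. From stage 0-like to iNKT1-like cells it changed by -0.77 for Itm2a. From the Cd8b1 cluster to the Nrgn cluster of stage 0-like cells it rose by 1.14 for Cldn10, a test added after seeing the data. Those of Itm2a, Gm43352 and Marcksl1 to cycling-like cells passed under all 13 alternatives run. The other 3 lost the call without C57BL/6 replicate 1 and with DESeq2.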

How the results depend on the processing

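No value that passed changed direction, but 37 values of single genes that did not pass did (log2 differences; the cause was not tested). On leaving out each library the range was, in stage 0-like cells, -0.0728 to 0.204 for Itm2a, -0.0773 to 0.38 for Slc29a1, -1.93 to 0.131 for Rag1 and -0.402 to 0.301 for Dntt, and in cycling-like cells -1.59 to 7.33 for Dntt. In iNKT2-like cells it was -0.105 to 0.626 for Cldn10, -0.841 to 0.116 for Marcksl1 and -0.603 to 0.0914 for Gm43352, and in iNKT1-like cells -0.515 to 1.26 for Cldn10 and -0.479 to 0.426 for Marcksl1. Over all cells it was -1.13 to 0.797 for Rag1, -0.409 to 1.88 for Dntt, -0.336 to 0.39 for Arpp21 and -0.136 to 0.68 for Gm43352. For the interaction to cycling-like cells it was -0.0522 to 0.813 for Slc29a1, and for that to iNKT1-like cells -1.52 to 0.123 for Cldn10, -0.22 to 0.357 for Slc29a1 and -0.297 to 0.571 for Marcksl1. Other settings turned Itm2a in the Nrgn cluster alone (-0.00642), Dntt in stage 0-like cells without the filter (0.0133) and at resolution 0.4 (0.00259), Cldn10 in cycling-like cells without correction between libraries (0.225) and in cluster 11 alone (1.05), Dntt in cluster 11 alone (-0.0565), Marcksl1 in iNKT1-like cells at resolution 1.2 (0.00695), Rag1 over all cells with the replicate block (-0.0654) and, for the interaction to iNKT1-like cells, Marcksl1 with the 10 genes among the variable genes (-0.000235) and Gm43352 at resolution 1.2 (0.141). Of the 10 genes, the number passing in stage 0-like cells (1) was 0 to 1 on leaving out each library, being 0 without either C57BL/6 library, and 0 in the Cd8b1 cluster alone. In cycling-like cells (1) it was 2 with DESeq2, 4 without the filter on low counts, 0 with the 10 genes among the variable genes, 2 without correction between libraries, 4 in cluster 11 alone and 1 to 4 on leaving out each library, with 4 without C57BL/6 replicate 1 and 2 without Hivep3-/- replicate 1. Without the filter, 1 passed in each of iNKT2-like, iNKT17-like and iNKT1-like cells and 3 over all cells. DESeq2 called 1 in iNKT1-like cells and 3 over all cells, and 2 passed there with the highest doublet scores removed. Leaving out each library gave 0 to 1 in iNKT17-like cells (1 without C57BL/6 replicate 2 or Hivep3-/- replicate 1) and 0 to 1 in iNKT1-like cells (1 without Hivep3-/- replicate 2). For the interactions, 3 passed to iNKT2-like cells without the filter and 0 to 1 on leaving out each library. To iNKT1-like cells 0 passed with DESeq2 and 0 to 1 on leaving out each library. Between the stage 0-like clusters 0 passed with DESeq2 and 0 to 1 on leaving out each library. The cause of these changes was not tested. The median share of stage 0-like cells with a UMI, 60.2%, was 76.6% without thinning, 38.5% at 1000 UMIs and 29.8% for 2 or more UMIs.

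Samples of the 2 genotypes share replicate numbers but nothing says what a number marks. Deviations of same-numbered samples correlated at 0.0009 to 0.165 over the classes, with only 2 pairs. With the replicate block, 2 genes passed over all cells (Itm2a and Cldn10), 1 in iNKT1-like cells (Itm2a) and 1 in iNKT17-like cells (Marcksl1), against 0 without it in each, while the counts of the remaining classes did not move (1 for stage 0-like, 1 for cycling-like, 0 for iNKT2-like). Leaving out double positive-like and B cell-like clusters was planned and not run, as no cluster had either name. Alternatives on the cells with both Cd8 transcripts, on single clusters and on the stage 0-like clusters were chosen after seeing the data. Rag2 was too low to test in any class.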
